A study of Drosophila melanogaster with 16 samples.

Results

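The effect of losing Asx was set against the effect of inactivating Sce, gene by gene, in single Drosophila melanogaster embryos at stage 16 (15 to 16 h of age). For each gene the Asx0 effect is the mean of 5 Asx0 embryos minus the mean of the 3 wild-type embryos assigned to them for comparison, and the SceI48A effect is the mean of 4 SceI48A embryos minus the mean of their own 4 wild-type embryos. The difference of the effects is the Asx0 effect minus the SceI48A effect, so a positive value means that the gene stood higher in Asx0 embryos than in SceI48A embryos once each is measured against its own wild type. All 10069 of 13754 genes with a mean normalized read count of at least 10 in both deposited tables were compared, and the measurements themselves played no other part in choosing them. All values below are on the authors' log2 scale, on which a step of 1 is a doubling.

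Asx0 embryos were homozygous for Asx22P4, a null allele of Asx on the second chromosome, and were picked as GFP-negative progeny of w mothers and fathers that carried Asx0 on an F40 F42D y+ chromosome over CyO with twi-Gal4 and UAS-GFP. Only the zygotic Asx is missing in them, so the egg's own supply from the mother was present. SceI48A embryos carried catalytically dead Sce as their only Sce, from the mother and from the zygote. A SceI48A transgene stood in an Sce0 null background on F82B chromosomes marked with cu and sr. A flip-out Sce+ copy had been removed in the parents' germ line with nos-Gal4VP16 and UAS-FLP. Wild-type embryos were Oregon-R in both tables. Mutant and wild-type embryos therefore differ in stock as well as in the named mutation, and within each table stock and mutation cannot be told apart. Each embryo was a library of its own, so the p-values rest on the spread between single embryos. The study had selected these embryos from a larger set as comparable, by principal components of the same expression data and by morphology. The spread among unselected embryos can differ and is not known here.

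H2Aub1 is histone H2A carrying a single ubiquitin at a lysine near its C terminus. In flies it is attached by Sce, the ubiquitin ligase of Polycomb repressive complex 1 (PRC1), and removed by PR-DUB, in which Asx activates the deubiquitinase Calypso (caly). In older embryos of the study, loss of Asx raised H2Aub1 and the I48A exchange in Sce left little or none. The comparison is thus meant to set embryos with too much of the mark against embryos nearly or wholly without it. H2Aub1 itself was not measured in these single embryos. PRC1 is known for keeping HOX genes and other developmental regulators silent outside their domains, and PR-DUB is needed for that repression as well.

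RNA of neurons, glia and muscle was measured in these whole embryos, with 32 of 32 neuronal, 15 of 15 glial and 25 of 27 sarcomere genes above the minimum in both tables. The read depth of each embryo is not known, because the tables hold normalized values only. The median gene had a residual SD of 0.0851 in the Asx0 table and 0.1135 in the SceI48A table. Wild-type levels also differed between the tables, in both directions. The wild-type mean of Osi14 was 10.87 in the Asx0 table and 13.78 in the SceI48A table, and that of tobi 6.71 and 4.96. The tables were normalized separately, and whether stage or batch had a part was not tested. Each mutant was measured in its own table only, so mutant and table cannot be told apart. Embryo 1 of SceI48A and embryo 1 of its wild type deviated most from their group means (root mean square 0.172 and 0.164 over genes, against 0.0820 to 0.131 in the other 14 embryos). The male dosage compensation gene msl-2 was low and its female repressor Sxl high in 1 of 5 Asx0 embryos, 2 of their 3 wild-type embryos, 1 of 4 SceI48A embryos and 1 of their 4 wild-type embryos. With msl-2 minus Sxl as a covariate, 202 genes had a higher and 151 a lower Asx0 effect, and 334 of these were among those called without it.

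Between the lower and the upper quartile the difference of the effects ran from -0.11 to 0.10, around a median of -0.0042. The effects differed at 414 genes, which is 4.11% of those tested (limma on all 16 embryos, Benjamini-Hochberg adjusted p under 0.05). The Asx0 effect was the higher at 231 of them (2.29%) and the lower at 183 (1.82%). At an unadjusted p under 0.05 in the same test it was higher at 916 and lower at 957 of the 10069 genes. Only 39 genes (0.387%) differed by more than 2-fold, 21 with a higher Asx0 effect (0.209%) and 18 with a lower (0.179%). The mean of both effects, which a large effect in 1 mutant alone can also move, passed the test at 1916 genes (19%), with 915 higher (9.09%) and 1001 lower (9.94%) than wild type, or 1177 higher and 810 lower when each embryo was centred on equal medians. Taken within its own table, the Asx0 effect passed the same threshold at 1142 genes (11.3%), 510 higher (5.07%) and 632 lower (6.28%) in Asx0 embryos. The SceI48A effect passed it at 803 (7.97%), 333 higher (3.31%) and 470 lower (4.67%). In whole embryos, fewer cells of a type and less RNA per cell cannot be told apart.

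**Figure D1:**
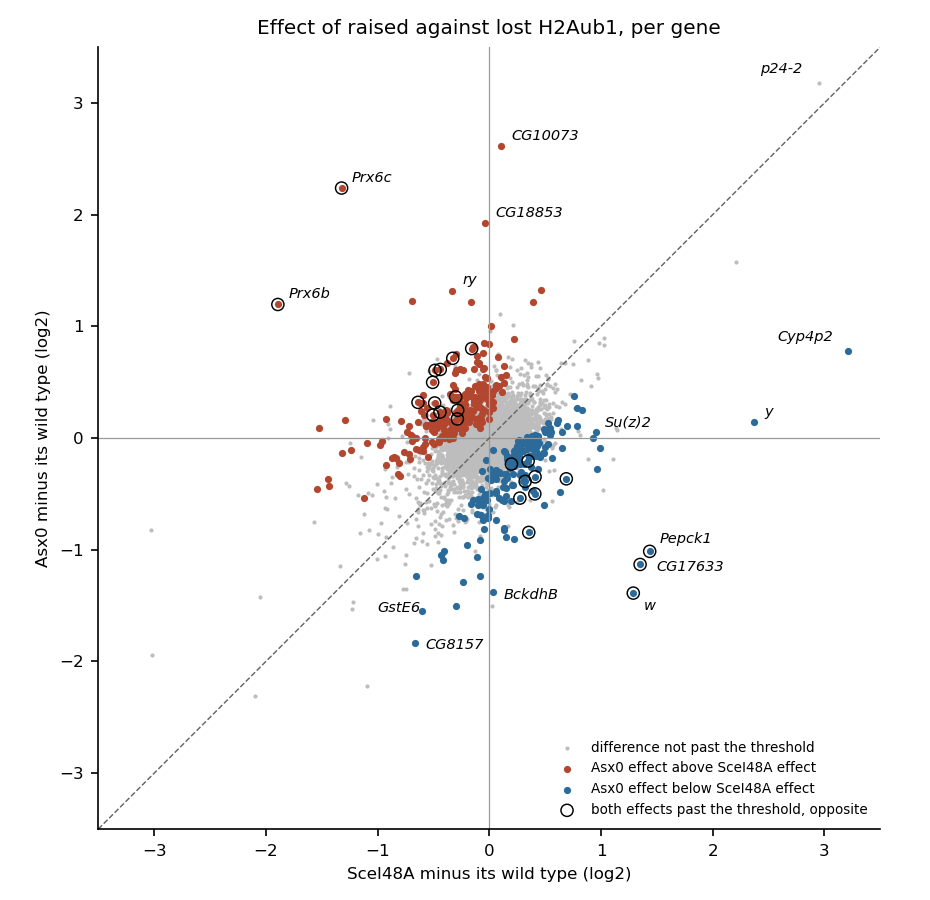
SceI48A minus its wild type (horizontal axis, log2) against Asx0 minus its wild type (vertical axis, log2) for the 10069 genes, with the dashed line where both effects are equal. Red points mark the 231 genes with a higher and blue points the 183 with a lower Asx0 effect, and rings mark the 25 genes that moved in opposite directions.

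Of the 414 genes, 178 passed the test in the Asx0 table alone (98 with a higher and 80 with a lower Asx0 effect) and 147 in the SceI48A table alone (86 higher and 61 lower). At 44 genes neither effect passed by itself (25 higher and 19 lower). Both effects passed in opposite directions at 25 genes (0.248% of those tested): 14 rose in Asx0 embryos and fell in SceI48A embryos, and 11 fell in Asx0 embryos and rose in SceI48A embryos. Both effects passed in the same direction at 236 genes, 75 higher and 161 lower in both mutants, and at 20 of these the sizes differed (8 with a higher and 12 with a lower Asx0 effect). Leaving out the embryos in turn, 205 of the 414 genes kept their call each time, among them all 25 with opposite effects and 32 of the 39 beyond 2-fold. Embryo 1 of the wild type for Asx0 weighed most: without it 161 genes had a higher and 118 a lower Asx0 effect.

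The largest difference was at the peroxiredoxins Prx6c and Prx6b, enzymes that reduce peroxides, which lie close together on 2R (Prx6c at 10418718 to 10419761, Prx6b at 10424436 to 10425471, dm6). Prx6c stood at 13.12, 13.19, 13.97, 13.13 and 14.13 in Asx0 embryos, against 11.44, 10.63 and 11.74 in their wild type. SceI48A embryos had 10.33, 9.53, 10.90 and 9.38, against 12.24, 10.98, 11.13 and 11.08 in theirs. Every Asx0 embryo was above its wild type and every SceI48A embryo below its own, without overlap in either table. The difference of the effects was 3.56 ± 0.50 (SE), from an Asx0 effect of 2.24 and a SceI48A effect of -1.32 (adjusted p = 0.0003458). Prx6b followed the same pattern, with 12.18, 12.22, 12.90, 12.11 and 13.10 in Asx0 embryos, against 10.93, 11.10 and 11.89 in their wild type. Its levels in SceI48A embryos were 9.79, 9.06, 11.03 and 9.23, against 12.66, 11.05, 11.85 and 11.13 in theirs. Here too the groups did not overlap, and the third SceI48A embryo and the first of its wild type were the high ones. The Prx6b effects were 1.20 and -1.89, which differed by 3.09 ± 0.57 (adjusted p = 0.004024). The copies resemble each other closely, so reads could have been shared between them in the counting.

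The genes between them leaned the same way. CG11825 had effects of 1.22 and -0.69 and a difference of 1.91 ± 0.51 (adjusted p = 0.03991). That call was lost without any of 10 of the 16 embryos, with an adjusted p of up to 0.102. CG33474, which overlaps CG11825, had a difference of 0.31 ± 0.07 (adjusted p = 0.02004), lost without wild-type embryo 2 for Asx0 (adjusted p = 0.0557). The next gene beyond Prx6b, CG12896, had negative effects in both mutants, -0.88 and -0.93. Neither passed limma's test (adjusted p = 0.06451 and 0.1747). Its Asx0 embryos (8.05 to 8.70) were all below their wild type (8.72 to 10.22), unlike at Prx6c and Prx6b. The difference at CG12896 was 0.04 ± 0.56 (adjusted p = 0.9779). The 18 tested genes of the peroxide and superoxide defence list had no other call than the Prx6 pair, which is 11.1% of the list against 4.11% of all genes, and their median difference was 0.08.

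Among genes that rose in Asx0 embryos and fell in SceI48A embryos were further enzymes and secreted proteins. tobi, an alpha-glucosidase of the fat body and gut that responds to insulin-producing cells, stood at 7.53, 7.38, 7.46, 7.51 and 7.70 in Asx0 embryos, against 6.67, 6.67 and 6.80 in their wild type. SceI48A embryos ranged from 4.76 to 4.84 for tobi, just under the 4.88 to 5.03 of their wild type. The Asx0 side carried most of the difference of 0.96 ± 0.09 (effects 0.80 and -0.16, adjusted p = 2.864e-06), and the mean count of tobi was 30.6 in the SceI48A table, where such low counts are shrunk most. Cyp4ad1, a cytochrome P450, had 9.05, 8.998, 9.04, 8.81 and 9.01 in Asx0 embryos, against 8.67, 8.24 and 8.22 in their wild type. Its levels in SceI48A embryos were 7.02, 6.90, 7.04 and 6.97, against 7.54, 7.38, 7.72 and 7.22 in their wild type. The Cyp4ad1 effects were of like size, 0.61 and -0.49, and differed by 1.09 ± 0.15 (adjusted p = 0.0003259).

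Idgf5, a chitinase-like growth factor, had 9.43, 9.62, 9.58, 9.84 and 9.65 in Asx0 embryos, against 9.28, 9.30 and 9.33 in their wild type. SceI48A embryos had 8.03, 8.89, 8.93 and 8.87 for Idgf5, against 9.53, 9.31, 9.15 and 9.29 in their wild type. SceI48A embryo 1 was far below the other 3, which were themselves below every wild-type embryo. The difference was 0.96 ± 0.22 (effects 0.32 and -0.64, adjusted p = 0.01727). yellow-h, of the yellow family of secreted proteins, had effects of 0.50 and -0.51 (difference 1.01 ± 0.15). Muc18B, a mucin, had 0.71 and -0.33 (difference 1.04 ± 0.13). haf, which codes for a leucine-rich repeat membrane protein, had 0.21 and -0.51. Adgf-A, a secreted adenosine deaminase, had 0.23 and -0.44. CG43742, CG17111, CG34221, CG17292 and side-VIII made up the rest of the 14, with differences from 0.46 (side-VIII) to 1.05 (CG43742).

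The opposite pattern was led by w, the ABC transporter subunit that carries eye pigment precursors and a common marker gene of fly stocks and transgenes. w stood at 6.82, 6.87, 6.90, 6.69 and 6.69 in Asx0 embryos, against 8.21, 8.16 and 8.18 in their wild type. SceI48A embryos had 10.95, 10.56, 11.22 and 11.62, against 9.65, 9.88, 9.87 and 9.80 in their wild type. The difference of -2.68 ± 0.21 came about equally from an Asx0 effect of -1.39 and a SceI48A effect of 1.29 (adjusted p = 5.997e-07). The parents of the Asx0 and SceI48A embryos are labelled w, and what the transgenes added to w RNA was not tested. Among 16 eye pigment genes w was the only lower and ry the only higher call (12.5% against 4.11% of all genes, median 0.07). Of 4 stock marker genes w and y were lower.

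CG17633 matched w in size, with 6.62, 6.85, 6.82, 6.62 and 6.89 in Asx0 embryos, against 7.95, 7.90 and 7.83 in their wild type. In the other table it had 10.72, 10.24, 10.53 and 10.20 in SceI48A embryos, against 9.46, 9.14, 8.99 and 8.69 in their wild type. The groups did not overlap in either table, and the difference was -2.48 ± 0.19 (effects -1.13 and 1.35, adjusted p = 5.997e-07). Pepck1, the phosphoenolpyruvate carboxykinase that starts gluconeogenesis, had 12.29, 11.20, 11.74, 11.07 and 11.48 in Asx0 embryos, against 12.48, 12.54 and 12.69 in their wild type. SceI48A embryos reached 13.36, 14.05, 13.88 and 13.90 for Pepck1, against 13.08, 12.01, 12.84 and 11.52 in their wild type. Its wild-type embryos were widely spread in the SceI48A table, and still all SceI48A embryos stood above them. The difference was -2.45 ± 0.41 (effects -1.01 and 1.44, adjusted p = 0.001835). Its neighbour Pepck2, the second gene for this enzyme, fell in Asx0 embryos (-0.89) and had an effect of 0.14 in SceI48A embryos, a difference of -1.03 ± 0.12 (adjusted p = 5.355e-05).

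The other genes that fell in Asx0 embryos and rose in SceI48A embryos had varied functions. ds, the large cadherin Dachsous that orients cells within epithelia, had 9.55, 9.65, 9.59, 9.68 and 9.81 in Asx0 embryos, against 10.23, 10.16 and 10.07 in their wild type. SceI48A embryos had 10.82, 10.95, 10.78 and 10.95, against 10.18, 10.58, 10.61 and 10.51 in theirs. The difference at ds was -0.91 ± 0.12 (effects -0.50 and 0.41, adjusted p = 0.0002604). coro, the actin-binding coronin, had effects of -0.54 and 0.27 (difference -0.81 ± 0.08, adjusted p = 4.157e-06). MRP, an ABC transporter of conjugated compounds, had -0.39 and 0.32 (difference -0.71 ± 0.08). Spn55B, a serpin protease inhibitor, had -0.35 and 0.41 (difference -0.76 ± 0.10). phr, the DNA photolyase, had -0.84 and 0.35, but its wild-type embryos for Asx0 were at 6.25, 7.22 and 7.60 and the lowest of them overlapped the Asx0 range of 6.10 to 6.25. Cpr49Ae, a cuticle protein, had -0.36 and 0.69, again with overlap between Asx0 embryos and their wild type. CG10077 and CG30265 completed the 11, with differences of -0.55 and -0.43.

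**Figure D2:**
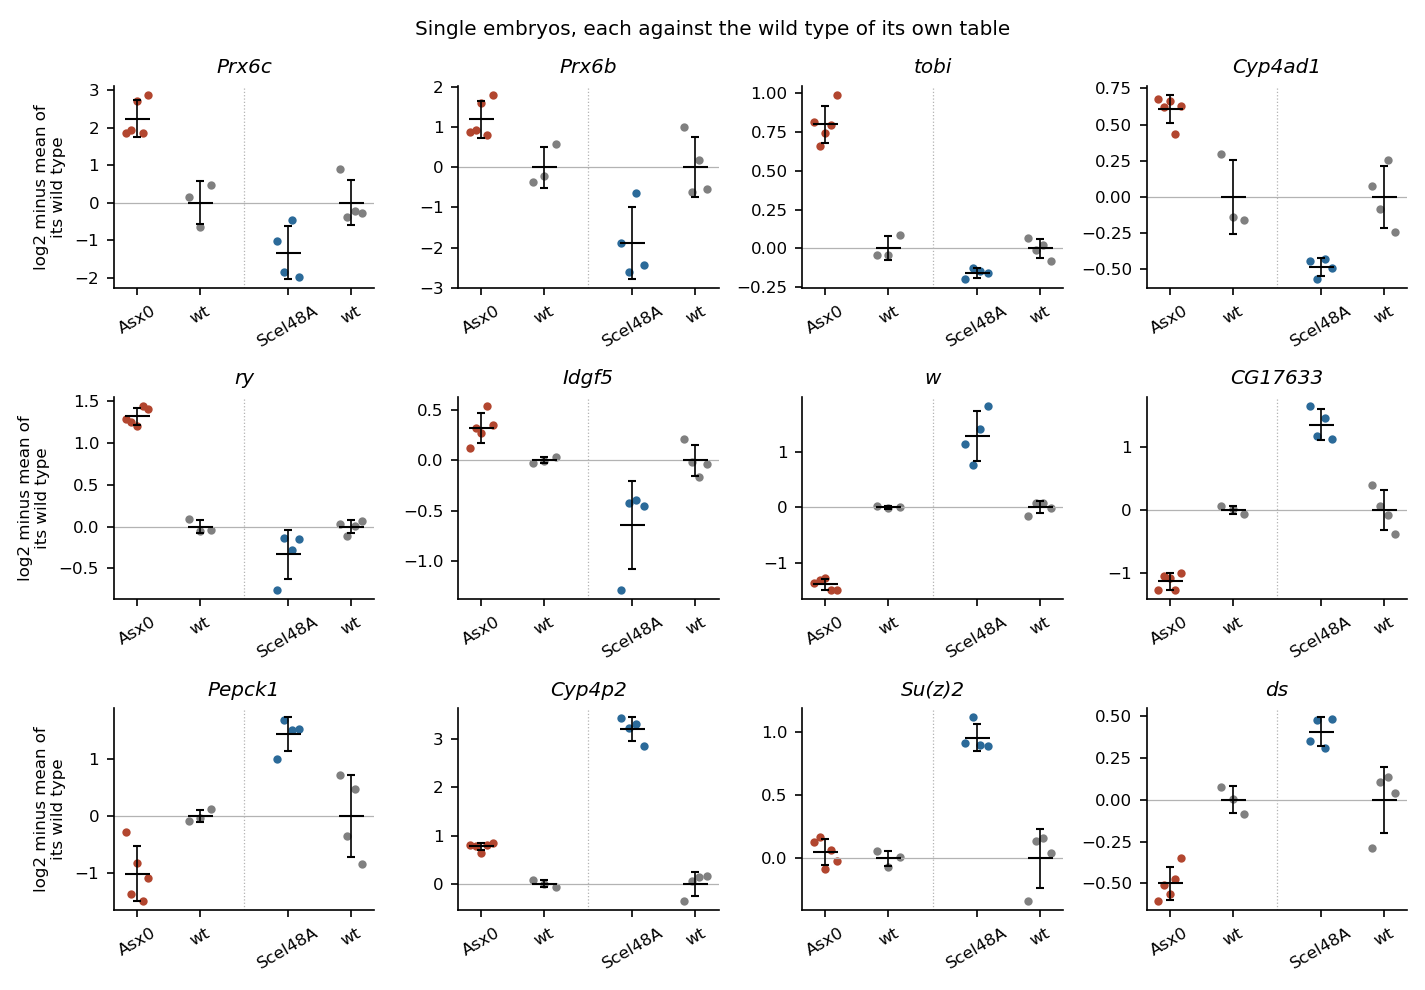
Single embryos for 12 genes, each as its log2 value minus the mean of the wild type in its own table, with Asx0 and its wild type on the left of each panel and SceI48A and its wild type on the right. Bars give the mean ± SD (n = 5, 3, 4 and 4). Asx0 and SceI48A embryos lie on opposite sides of 0 for Prx6c, Prx6b, tobi, Cyp4ad1, ry, Idgf5, w, CG17633, Pepck1 and ds.

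Some of the largest differences came mostly or only from Asx0 embryos. CG10073 had 10.91, 10.80, 11.01, 11.11 and 11.10 in Asx0 embryos, against 8.34, 8.43 and 8.34 in their wild type. The 8 embryos of the other table all lay between 7.38 and 7.77, with SceI48A and wild type overlapping. Its Asx0 effect was 2.61 and its SceI48A effect 0.11, and the difference of 2.51 ± 0.12 had the smallest adjusted p of all genes (1.213e-09). CG18853 had an Asx0 effect of 1.93 with no overlap (8.54 to 8.78 in Asx0 embryos, against 6.47 to 7.05 in their wild type). Its SceI48A effect was -0.04, at a mean count of 25.8 in that table against 370.2 in the Asx0 table. ry, the xanthine dehydrogenase that makes uric acid, had 12.31, 12.26, 12.22, 12.46 and 12.43 in Asx0 embryos, against 11.11, 10.96 and 10.98 in their wild type. SceI48A embryos had 10.46, 11.09, 10.95 and 11.07 for ry, slightly under the 11.26, 11.11, 11.24 and 11.30 of their wild type. The ry effects of 1.32 and -0.33 differed by 1.65 ± 0.15 (adjusted p = 3.921e-06). The SceI48A effect did not pass limma's test (adjusted p = 0.1195), though SceI48A embryos and their wild type did not overlap. What the mutant stocks themselves added to ry RNA was not tested.

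Other genes fell in Asx0 embryos alone. BckdhB, a subunit of the dehydrogenase that breaks down branched-chain amino acids, had 8.59, 8.10, 8.87, 8.74 and 8.86 in Asx0 embryos, against 9.98, 9.99 and 10.08 in their wild type. SceI48A embryos (10.74 to 10.91) and their wild type (10.70 to 10.84) overlapped for BckdhB, and the difference was -1.41 ± 0.17 (adjusted p = 9.313e-05). Ugt35A1, a UDP-glycosyltransferase, had an Asx0 effect of -1.23 and a SceI48A effect of -0.08. Appl, the fly amyloid precursor-like protein of neurons, had 12.66, 12.32, 12.43, 12.58 and 12.54 in Asx0 embryos, against 13.22, 13.19 and 13.22 in their wild type. Its SceI48A effect was -0.01, and the difference was -0.69 ± 0.12 (adjusted p = 0.002913). Appl was the only called gene of the 32 neuronal genes (3.12% against 4.11% of all genes), whose median difference was -0.02.

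SceI48A embryos alone carried other differences. Cpr67Fa1, a cuticle protein gene, had 9.91, 10.38, 10.12 and 9.53 in SceI48A embryos, against 11.68, 11.33, 11.75 and 11.28 in their wild type. Asx0 embryos (12.08 to 12.25) lay inside the spread of their 3 wild-type embryos (11.12 to 12.87). The difference was 1.62 ± 0.36 (adjusted p = 0.01578), and near-identical copies of this gene could have shared reads. CG7296 fell by 1.29 in SceI48A embryos, with 7.49, 8.17, 8.00 and 8.15 against 9.29, 9.23, 9.22 and 9.23 in their wild type. CG43799 fell by 1.32 and CG42822 by 1.24 there, without overlap, and none of the 3 passed the test in Asx0 embryos (effects 0.16, -0.13 and -0.11). PPO2, a prophenoloxidase of crystal cells, had Asx0 and SceI48A effects of 0.17 and -0.93. It was the only call among 14 macrophage and crystal cell genes (7.14% against 4.11% of all genes). Its difference of 1.10 ± 0.26 lost its call without wild-type embryo 2 for Asx0 or without SceI48A embryo 2 (adjusted p up to 0.0674). y, the yellow protein of dark cuticle and a common stock marker, was at 11.00, 12.32, 12.54 and 9.98 in SceI48A embryos, against 9.07, 8.81, 9.64 and 8.84 in their wild type. Its Asx0 effect was 0.14 and its difference -2.22 ± 0.55 (adjusted p = 0.02716). The y call was lost without wild-type embryo 1 for Asx0, SceI48A embryo 2, or wild-type embryo 2 or 4 for SceI48A (adjusted p up to 0.0854).

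At a few genes both mutants moved the same way and by unequal amounts. Cyp4p2, a cytochrome P450, had 6.95, 6.93, 6.78, 6.95 and 6.98 in Asx0 embryos, against 6.21, 6.14 and 6.07 in their wild type. SceI48A embryos had 10.25, 10.03, 10.13 and 9.68, against 6.45, 6.87, 6.95 and 6.98 in theirs. Both mutants thus stood above their wild types without overlap, by 0.78 and by 3.21, and the difference was -2.43 ± 0.17 (adjusted p = 1.192e-07). Ugt49B1 rose by 1.32 in Asx0 embryos and by 0.46 in SceI48A embryos (difference 0.86 ± 0.14, adjusted p = 0.001717). GstE6, a glutathione transferase, fell by 1.499 in Asx0 embryos and by 0.29 in SceI48A embryos (difference -1.21 ± 0.11, adjusted p = 2.864e-06). CG8157 fell by 1.84 and by 0.66 (difference -1.17 ± 0.25, adjusted p = 0.01308). p24-2, a cargo receptor gene with a near-identical copy in eca, was far higher in both mutants, by 3.17 and 2.95, and its difference of 0.23 ± 1.03 (adjusted p = 0.9373) was small against an SD of 1.67 among Asx0 embryos and 1.46 among SceI48A embryos.

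The genotype genes gave no check of the labels at the RNA level. Asx RNA was at 10.16, 10.22, 10.31, 10.37 and 10.26 in Asx0 embryos, against 10.25, 10.27 and 10.35 in their wild type. Sce RNA was at 9.08 to 9.19 in SceI48A embryos, against 8.93 to 9.11 in their wild type, and its difference was -0.17 ± 0.08 (adjusted p = 0.2821). caly, the catalytic partner of Asx, had -0.21 ± 0.10 (adjusted p = 0.2417). Neither the Asx0 effect on Asx (-0.03) nor the SceI48A effect on Sce (0.11) passed its test.

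The Polycomb group pair Psc and Su(z)2, which code for related PRC1 subunits and lie next to each other on 2R, stood lower in Asx0 than in SceI48A embryos relative to wild type. Su(z)2 had 10.03, 10.07, 9.82, 9.97 and 9.89 in Asx0 embryos, against 9.96, 9.84 and 9.92 in their wild type. SceI48A embryos had 11.47, 11.68, 11.45 and 11.45, against 10.21, 10.69, 10.72 and 10.60 in theirs. Su(z)2 thus overlapped wild type in Asx0 embryos and rose by 0.96 in SceI48A embryos, a difference of -0.91 ± 0.14 (adjusted p = 0.0006927). Psc rose in both mutants, with 9.38, 9.44, 9.36, 9.43 and 9.37 in Asx0 embryos, against 9.18, 8.98 and 9.22 in their wild type. Its levels were 10.86, 10.99, 10.65 and 10.88 in SceI48A embryos, against 9.99, 10.23, 10.01 and 9.9996 in their wild type. The gain was 0.27 in Asx0 and 0.79 in SceI48A embryos, and the difference -0.52 ± 0.11 (adjusted p = 0.01242). Drl-2, a receptor tyrosine kinase gene on the same arm, rose in both (0.52 and 0.82) and its difference of -0.30 ± 0.11 did not pass the test (adjusted p = 0.15).

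Of the 25 Polycomb group genes tested, these 2 and jing were called, all lower (12% against 4.11% of all genes). The difference was negative at 22 of the 25, against 5135 of all 10069 genes, and the median of the list was -0.14. jing, a zinc finger gene, had effects of -0.03 and 0.32 and a difference of -0.35 ± 0.09 that was lost without Asx0 embryo 1, wild-type embryo 1 or 3 for Asx0, or SceI48A embryo 2 (adjusted p up to 0.076). None of the 19 trithorax group genes, which counteract Polycomb repression, was called by limma, and their median was -0.15. At an unadjusted p under 0.05 in limma, 7 of the 19 were lower, against 957 of all 10069 genes. The median longest transcript was 4069 bases in the Polycomb and 5316 bases in the trithorax list, against 2080 bases over all genes, and the median difference fell with transcript length over all genes. With the length trend removed from each embryo, the Polycomb list still had 3 lower calls and a median of -0.12, and the trithorax list a median of -0.11.

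Of the 8 HOX genes, which set segment identity, only abd-A was called, which is 12.5% of the list against 4.11% of all genes. abd-A had 10.82, 11.00, 10.91, 10.98 and 10.91 in Asx0 embryos, against 11.04, 11.16 and 11.32 in their wild type. SceI48A embryos had 12.01, 11.98, 11.82 and 12.06, against 11.58, 11.79, 11.80 and 11.82 in theirs. The Asx0 embryos were all below their wild type (effect -0.25), while the lowest SceI48A embryo met the highest of its wild type (effect 0.22, adjusted p = 0.121). The difference was -0.47 ± 0.11 (adjusted p = 0.01836). It was lost without wild-type embryo 3 for Asx0 (adjusted p = 0.0569). Ubx had effects of 0.19 and 0.22 and a difference of -0.03 ± 0.13. Abd-B had a difference of -0.13 ± 0.13, and Scr of -0.20 ± 0.12. Antp fell in Asx0 embryos (-0.27, adjusted p = 0.01409) and had -0.0001 in SceI48A embryos, but its difference of -0.27 ± 0.10 did not pass the test (adjusted p = 0.1314). lab, pb and Dfd, the head genes, had 0.13 ± 0.19, 0.25 ± 0.13 and 0.30 ± 0.21, and none passed the test (adjusted p from 0.3599 to 0.7611). By antibody staining, the study found Antp, Ubx and Abd-B protein misexpressed in Asx0 embryos. For Antp and Ubx this concerned few cells, and Abd-B was both gained and lost. The study therefore found it unsurprising that whole-embryo RNA did not show these changes.

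Of 89 tested developmental regulators known as Polycomb targets, 6 had a lower Asx0 effect and none a higher. This is 6.74% of the list, against 4.11% of all genes. At an unadjusted p under 0.05 in limma, 21 were lower and 1 higher, against 957 lower and 916 higher of all 10069 genes. The median difference was -0.09, made up of a median Asx0 effect of -0.03 and a median SceI48A effect of 0.06. The difference was negative at 65 of the 89 genes, against 5135 of all 10069 genes. oc, the head homeobox gene, had effects of -0.16 and 0.36 and a difference of -0.52 ± 0.12 (adjusted p = 0.02156). exex, a motor neuron homeobox gene, had -0.34 and 0.05, a difference of -0.39 ± 0.10. Dichaete (D), a Sox factor of the nervous system, had -0.21 and 0.17, and ap, SoxN and nub had differences of -0.37, -0.37 and -0.33. The oc call was lost without wild-type embryo 1 for Asx0 (adjusted p = 0.0767), and the other 5 calls were each lost without 5 to 13 of the embryos. Without that wild-type embryo 1 member was called, and over the other embryos left out the count ran up to 8. With the length trend removed from each embryo 4 were called and the median was -0.07. Without embryo 1 of SceI48A and embryo 1 of its wild type 3 were called and the median was -0.04.

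**Figure D3:**
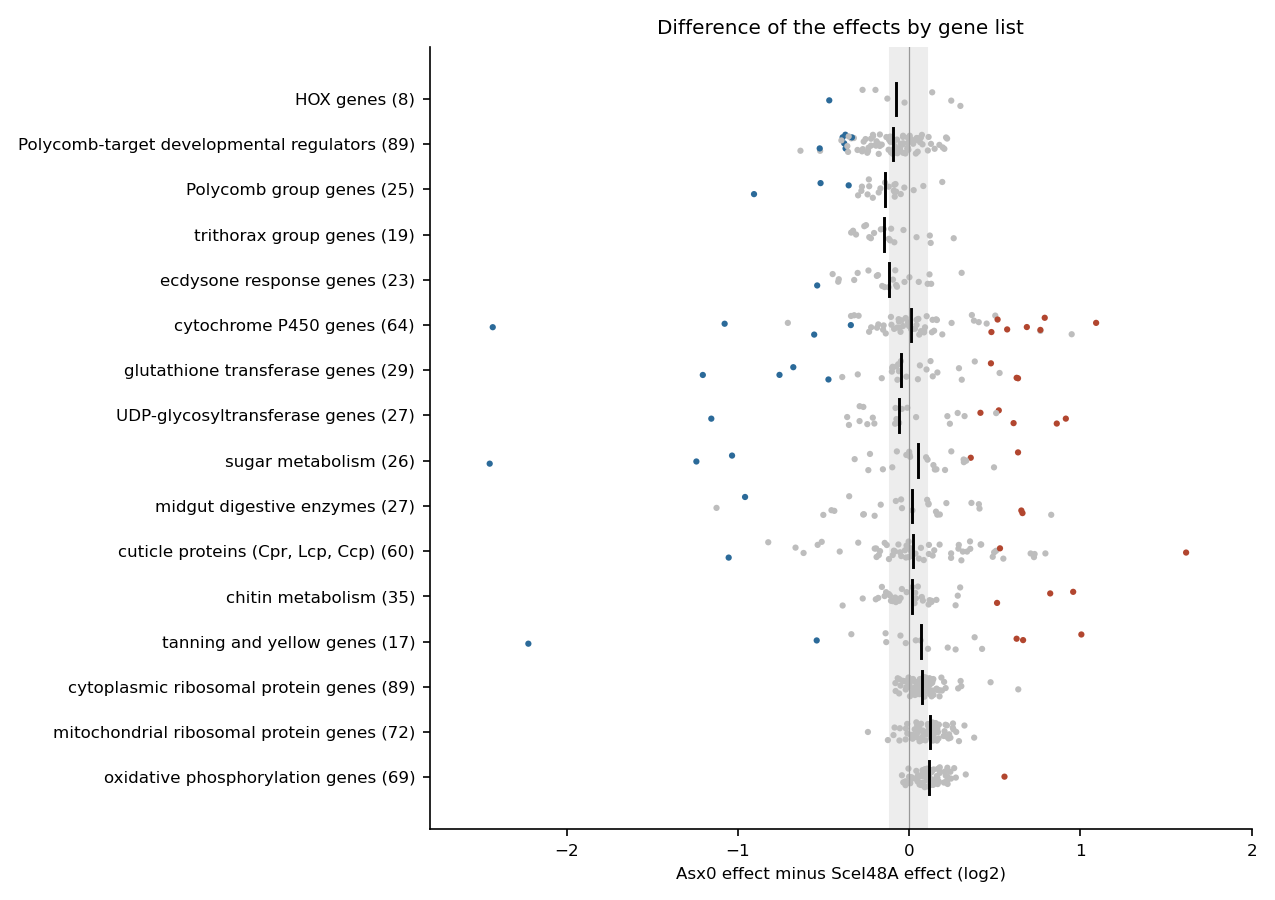
Asx0 effect minus SceI48A effect (log2) for every tested gene of 16 lists, with the number of genes in brackets. Black bars are medians, red and blue points are called genes and the grey band spans the quartiles of all genes; cytochrome P450, glutathione transferase and sugar metabolism genes spread widely to both sides, while ribosomal protein and oxidative phosphorylation genes sit in a narrow cloud a little above 0.

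Detoxification enzymes differed between the mutants in both directions. Of 64 tested cytochrome P450 genes, which oxidize foreign and endogenous compounds, 7 had a higher and 4 a lower Asx0 effect (17.2% against 4.11% of all genes), around a median of 0.01. Cyp6a20 had 7.23, 7.16, 7.31, 7.39 and 7.20 in Asx0 embryos, against 6.539, 6.56 and 6.67 in their wild type. Its SceI48A embryos were at 6.42 to 6.46, against 6.47 to 6.56 in their wild type, and the difference was 0.77 ± 0.08 (adjusted p = 1.144e-05). Cyp6a13 rose by 0.68 in Asx0 embryos and had -0.11 in SceI48A embryos (difference 0.79 ± 0.13). On the other side stood the adjacent genes Cyp4p2 and Cyp4p1. Cyp4p1 had 8.07, 7.86, 8.08 and 7.80 in SceI48A embryos, against 7.11, 6.86, 6.88 and 7.01 in their wild type, and an Asx0 effect of -0.09. Cyp304a1 had effects of -0.43 and 0.12, and its call was lost without any of 8 embryos (adjusted p up to 0.081). The number of lower genes ran from 2 to 6 over the embryos left out, with 2 without Asx0 embryo 1 or 5, any wild-type embryo for Asx0, or wild-type embryo 2 or 3 for SceI48A.

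Glutathione transferases, which conjugate glutathione to reactive compounds, had 3 higher and 4 lower calls among 29 tested genes. This is 24.1% of the list, against 4.11% of all genes, and the median difference was -0.05. GstE6 had 8.49, 8.71, 8.498, 8.73 and 8.57 in Asx0 embryos, against 9.99, 10.15 and 10.16 in their wild type. SceI48A embryos had 10.77, 10.70, 10.84 and 10.87, against 11.26, 10.99, 11.02 and 11.09 in theirs. GstE7, which follows GstE6 in the same cluster, had effects of -0.96 and -0.20 (difference -0.76 ± 0.12), and GstO3 had -1.09 and -0.42 (difference -0.68 ± 0.14). GstE2 of the same cluster went the other way, with 8.86, 8.95, 8.88, 8.73 and 8.91 in Asx0 embryos, against 8.48, 8.54 and 8.505 in their wild type. Its SceI48A embryos were at 7.75, 8.15, 8.23 and 8.08, against 8.46, 8.29, 8.33 and 8.23 in their wild type (difference 0.63 ± 0.12, adjusted p = 0.0079). GstE4 and GstE11 had differences of 0.64 and 0.48, lost without any of 12 and 9 embryos (adjusted p up to 0.112 and 0.108). The higher count was 1 without Asx0 embryo 1, 2 or 5, wild-type embryo 1 for Asx0 or SceI48A embryo 2.

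UDP-glycosyltransferases, which attach sugars to small molecules, had 5 higher and 1 lower call among 27 tested genes. The called share was 22.2%, against 4.11% of all genes, and the median difference was -0.06. Ugt49B1 had 9.60, 9.40, 9.54, 9.56 and 9.67 in Asx0 embryos, against 8.14, 8.39 and 8.17 in their wild type. Its levels in SceI48A embryos were 8.68, 8.63, 8.83 and 8.24, against 8.19, 8.06, 8.13 and 8.17 in their wild type. The neighbour Ugt49C1 had a difference of 0.42, lost without any of 10 embryos (adjusted p up to 0.103). Ugt35D1 fell in SceI48A embryos by 0.97 and had -0.06 in Asx0 embryos, while Ugt35A1 fell in Asx0 embryos (-1.23). Ugt35D1 and Ugt37C2 had differences of 0.91 and 0.61, lost without any of 8 and 9 embryos (adjusted p up to 0.088 and 0.0886). Leaving out Asx0 embryo 2 or SceI48A embryo 4 left 2 higher calls.

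Sugar metabolism genes had 2 higher and 3 lower calls among 26 (19.2% against 4.11% of all genes), with a median of 0.05. Beside Pepck1 and Pepck2, the trehalose transporter Tret1-1 was lower: it had 10.86, 11.19, 10.47 and 10.66 in SceI48A embryos, against 10.15, 9.88, 9.46 and 9.81 in their wild type. Asx0 embryos were at 8.56, 8.30, 8.76, 9.09 and 8.77 for Tret1-1, overlapping the 8.78, 8.84 and 9.29 of their wild type. The effects of -0.27 and 0.97 differed by -1.24 ± 0.25 (adjusted p = 0.009622). Gapdh1, the glycolytic glyceraldehyde phosphate dehydrogenase, went the other way, with 12.56, 12.62, 12.67, 12.48 and 12.64 in Asx0 embryos, against 12.08, 12.37 and 12.24 in their wild type. Its SceI48A embryos were at 11.92, 12.27, 12.46 and 12.39, against 12.58, 12.59, 12.48 and 12.48 in their wild type. The difference was 0.64 ± 0.14 (effects 0.37 and -0.27, adjusted p = 0.01252). Men, the malic enzyme, had a difference of 0.36, lost without any of 12 embryos (adjusted p up to 0.094), which left Gapdh1 alone on the higher side.

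Of 60 tested Cpr, Lcp and Ccp cuticle protein genes, 2 had a higher and 1 a lower Asx0 effect (5% against 4.11% of all genes), with a median of 0.02. Lcp65Ad had effects of 0.47 and -0.06, a difference of 0.53 ± 0.12 that was lost without wild-type embryo 1 for Asx0 (adjusted p = 0.0675). In the tanning and yellow list 3 genes were higher and 2 lower of 17 (29.4%, median 0.07): yellow-h, yellow-d and the aspartate decarboxylase black (b) against y and yellow-e2. yellow-h had 10.42, 10.37, 10.17, 10.57 and 10.27 in Asx0 embryos, against 9.65, 10.06 and 9.88 in their wild type. SceI48A embryos had 9.79, 9.82, 10.04 and 9.91 for yellow-h, against 10.53, 10.44, 10.13 and 10.47 in their wild type. yellow-d rose by 0.89 in Asx0 embryos and had 0.22 in SceI48A embryos, a difference of 0.67 lost without wild-type embryo 1 or 2 for Asx0 or wild-type embryo 2 or 3 for SceI48A (adjusted p up to 0.0675). b had effects of 0.35 and -0.28 (difference 0.63 ± 0.14, adjusted p = 0.01504). yellow-e2 had -0.48 and 0.06, a difference of -0.54 lost without wild-type embryo 1 or 2 for Asx0 (adjusted p up to 0.057), and without the first of these no gene of the list was lower.

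Chitin metabolism genes had 3 higher calls and no lower one among 35 (8.57% against 4.11% of all genes, median 0.02). Beside Idgf5 these were the chitinase Cht10, with effects of 0.77 and -0.06, and the hexosaminidase Hexo1, with 0.29 and -0.22. The Cht10 difference of 0.82 was lost without wild-type embryo 1 for Asx0, SceI48A embryo 2 or wild-type embryo 2 or 4 for SceI48A (adjusted p up to 0.0811), and the Hexo1 difference of 0.51 without wild-type embryo 2 or 3 for Asx0 (adjusted p up to 0.0527). Apical matrix genes with a zona pellucida domain had 2 higher calls among 10 (20%, median -0.08). neo, which shapes denticles, had effects of 0.45 and -0.03 (difference 0.48 ± 0.10, adjusted p = 0.008171). tyn had a difference of 0.75 that was lost without any of 9 embryos (adjusted p up to 0.107). Of 23 Tweedle genes 1 was called, TwdlT, with 0.80 (lost without Asx0 embryo 1 or 2, adjusted p up to 0.0512). None of 15 Osiris genes was called by limma (1 higher at an unadjusted p under 0.05), and their median was 0.16, which was -0.0075 without wild-type embryo 1 for Asx0.

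Several lists of tissue markers held 1 to 3 called genes each. The called share was 11.1% of the midgut, 13.3% of the glial, 9.09% of the fat body and 7.41% of the neuropeptide list. It was 6.25% of the immune, 5.88% of the odorant-binding protein and 4% of the sarcomere list, against 4.11% of all genes. Lsd-2, a lipid droplet perilipin, had effects of -0.28 and 0.44 (difference -0.72 ± 0.15, adjusted p = 0.008929) and was the only lower gene of 22 fat body genes, with Adhr higher by 0.66 (lost without any of 9 embryos, adjusted p up to 0.107). Gs2, the glutamine synthetase of glia, fell by 0.63 in SceI48A embryos and had -0.11 in Asx0 embryos (difference 0.52 ± 0.11), while Tret1-1, also in the list of 15 glial genes, was lower. Nplp1, a neuropeptide precursor, fell by 0.76 in SceI48A embryos and had -0.13 in Asx0 embryos (difference 0.63 ± 0.13). It was called with Tk (-0.23, lost without any of 5 embryos, adjusted p up to 0.0831) among 27 neuropeptide genes. Of 27 midgut digestive enzymes, the protease kappaTry had a difference of 0.66 ± 0.14 and the maltase Mal-A2 one of 0.66, lost without wild-type embryo 3 for Asx0 (adjusted p = 0.0678). The protease Jon65Aiv fell by 1.07 in Asx0 embryos and had -0.11 in SceI48A embryos, at a mean count of 28.1 in that table. TpnC25D of 25 sarcomere genes had 0.58 and Obp18a of 17 odorant-binding protein genes -0.68, lost without any of 14 and 12 embryos (adjusted p up to 0.137 and 0.133). Tep3, a thioester protein, was the only call among 16 immune genes, with 0.46 ± 0.08.

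stg, the Cdc25 phosphatase that starts mitosis, had 8.93, 9.09, 9.14, 9.32 and 9.30 in Asx0 embryos, against 9.71, 9.498 and 9.43 in their wild type. SceI48A embryos had 10.42, 10.76, 10.52 and 10.59, against 10.22, 10.39, 10.17 and 10.31 in theirs. The difference at stg was -0.69 ± 0.13 (effects -0.39 and 0.30, adjusted p = 0.006346), and it was the only call among 35 cell cycle genes. EcR, the ecdysone receptor, was the only call among 23 ecdysone response genes, with effects of -0.12 and 0.42. Its difference of -0.54 ± 0.12 (adjusted p = 0.01807) was just lost without wild-type embryo 1 for Asx0 (adjusted p = 0.0503). Hsp27 of 23 heat shock genes fell by 0.38 in SceI48A embryos (difference 0.53 ± 0.10), and a histone H4 copy, His4:CG33883, had 0.88 ± 0.12, at near-identical copies that reads cannot tell apart. None of 14 basement membrane, 9 salivary gland, 12 sex determination and 7 p24 genes was called by limma (0, 3, 2 and 0 at an unadjusted p under 0.05). The 37 lists held 1037 of the tested genes, 75 of them called (7.23% against 4.11% of all genes). The other 339 of the 414 called genes were in no list.

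Of the genes of protein synthesis and respiration, 1 of 69 oxidative phosphorylation genes was called (1.45% against 4.11% of all genes). None of the 89 cytoplasmic and 72 mitochondrial ribosomal protein genes was called. Cytoplasmic ribosomal protein genes had a median difference of 0.07 with 76 of 89 positive. Mitochondrial ribosomal protein genes had 0.12 with 62 of 72 positive, and oxidative phosphorylation genes 0.12 with 63 of 69 positive. Over all genes the median was -0.0042, with 4934 of 10069 positive. At an unadjusted p under 0.05 in limma, 2 and 10 of the ribosomal protein genes were higher and 0 and 1 lower. Over all 10069 genes, 916 were higher and 957 lower at that threshold. Cyt-c-p, the cytochrome c of the respiratory chain, was the only oxidative phosphorylation gene called. It had 12.42, 12.24, 12.52 and 12.41 in SceI48A embryos, against 12.80, 12.75, 12.86 and 12.74 in their wild type, and an Asx0 effect of 0.17. Its difference was 0.56 ± 0.09 (adjusted p = 0.00178). In both mutants the medians of these lists were below 0 (-0.06, -0.06 and -0.09 in Asx0 embryos, against -0.15, -0.18 and -0.19 in SceI48A embryos). Without wild-type embryo 1 for SceI48A the medians of the difference were 0.0037, 0.09 and 0.07 in the same order of lists. Without that embryo and SceI48A embryo 1 they were 0.02, 0.03 and 0.03. With the length trend removed from each embryo the medians were 0.02, 0.06 and 0.07, and 2 oxidative phosphorylation genes were called.

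These genes have short transcripts, and over all genes the difference moved with transcript length. With genes in 5 bins of equal size by longest annotated transcript, from the shortest to the longest, the median difference was 0.05, 0.03, 0.00, -0.03 and -0.09. The Asx0 effect changed little along this range (-0.02, -0.01, 0.00, 0.02 and 0.02), and the SceI48A effect more (-0.07, -0.04, -0.01, 0.04 and 0.12). Without SceI48A embryo 1 and wild-type embryo 1 of that table the medians of the difference were 0.02, 0.01, 0.00, -0.01 and -0.04. Whether RNA quality or staging of these embryos had a part in the trend was not tested. Taking the length trend out of every embryo gave 247 higher and 191 lower genes, 366 of them among the 414.

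**Figure D4:**
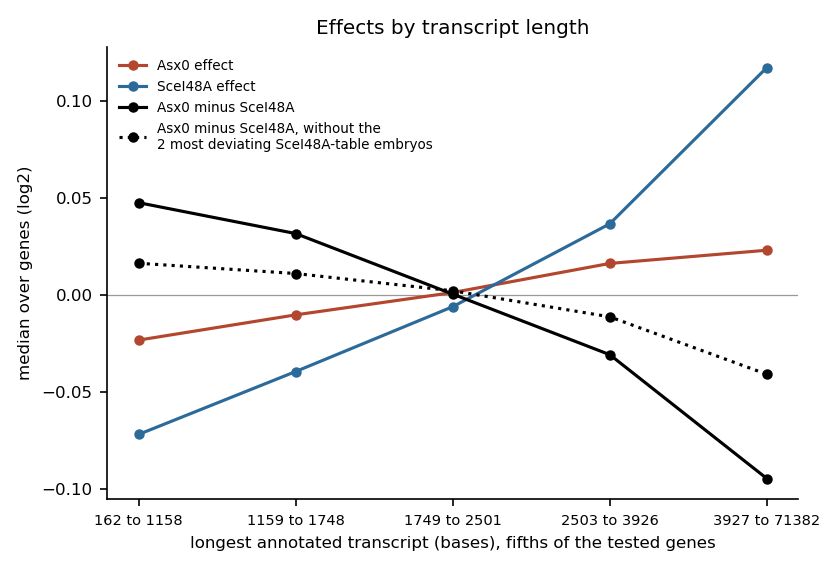
Median Asx0 effect, SceI48A effect and their difference (log2) in 5 bins of genes by length of the longest annotated transcript in bases. The solid black line falls from 0.05 in the shortest to -0.09 in the longest bin, and the dotted line, without embryo 1 of SceI48A and embryo 1 of its wild type, from 0.02 to -0.04.

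Some called genes were neighbours. Of 10022 pairs of tested genes next to each other on an arm, 39 had both genes called, which involved 75 genes, and 29 of the 39 pairs differed in the same direction. The next gene was also called for 9.44% of called genes, while 4.12% of all genes on the arms were called. Apart from the Prx6, Pepck, Cyp4p, GstE and Psc loci, l(3)87Df beside ry stood out, with 8.58, 8.54, 8.44, 8.52 and 8.57 in Asx0 embryos, against 7.62, 7.72 and 7.81 in their wild type. It had a difference of 0.96 ± 0.11 (effects 0.81 and -0.15, adjusted p = 6.029e-05). What the mutant stocks themselves added at l(3)87Df and ry was not tested. On the other side of ry, CG11668 had 0.01 and was not called, and CG11670 beyond it had 0.41 ± 0.10, lost without wild-type embryo 1 or 2 for Asx0 (adjusted p up to 0.0577). Differences did not always spread: Cyp4p3, next to Cyp4p1, had -0.06, and GstE8, next to GstE7, had -0.30, and neither was called. By arm, 5.1% of tested genes were called on 2L, 5.39% on 2R, 3.37% on 3L, 3.82% on 3R, 2.59% on X and 8.86% (7 of 79) on 4.

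**Figure D5:**
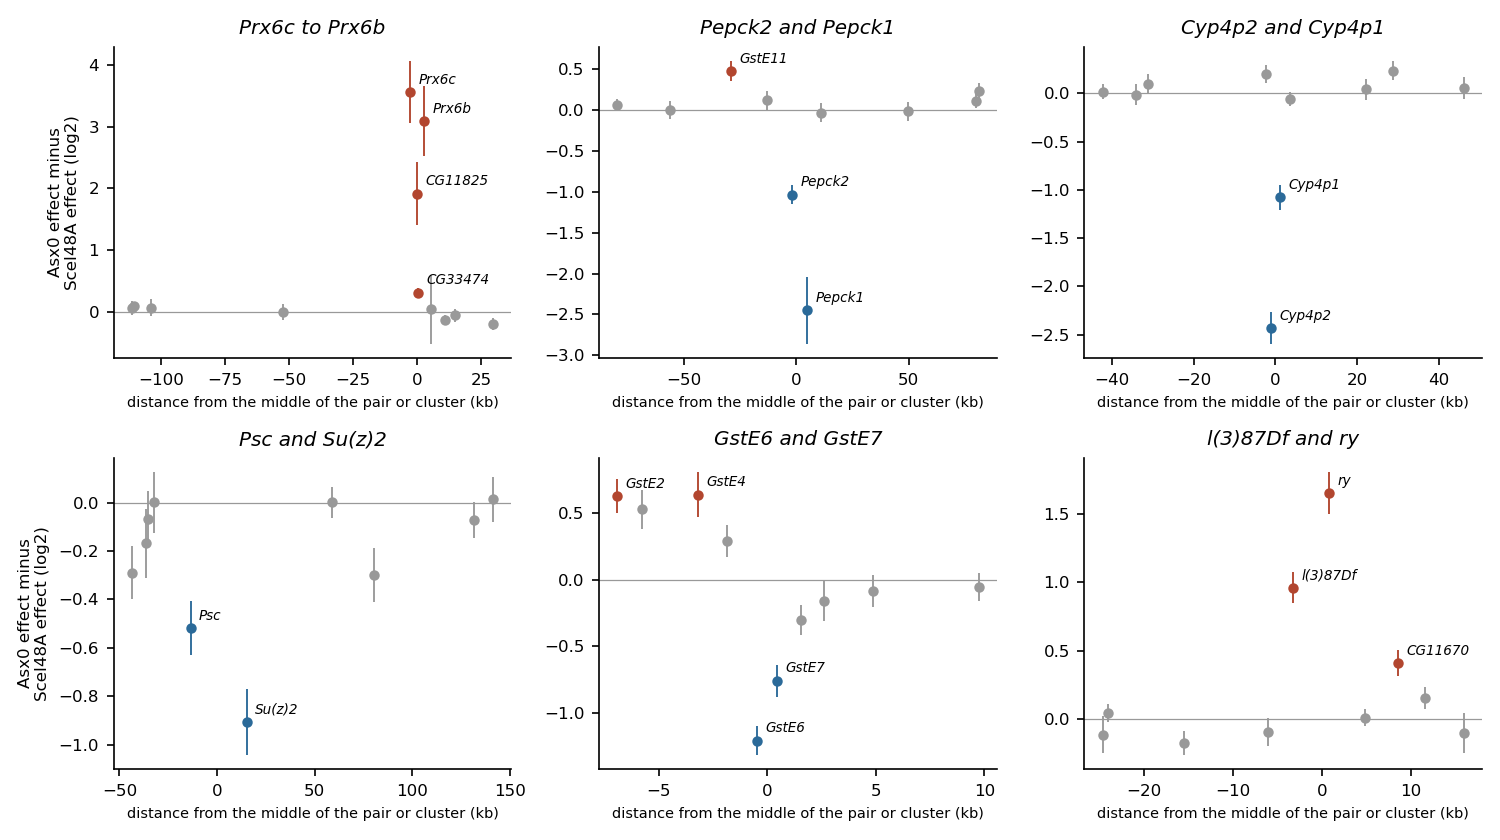
Asx0 effect minus SceI48A effect (log2, points with SE bars) for the tested genes around 6 loci, by distance in kb from the middle of the named pair or cluster. Red and blue points are called genes with a higher and a lower Asx0 effect and grey points were not called; at the Pepck and Cyp4p loci the named pair stands below its neighbours, of which GstE11 was itself called (0.48), and at the GstE locus called genes lie on both sides of 0.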

How the data were processed

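Poly(A) RNA of 16 single embryos had been sequenced paired-end on a NextSeq. The authors quantified reads with Salmon against dm6 and normalized with DESeq2 (versions not given in the sources used here). They deposited a table for each mutant, normalized separately, with a log2 normalized count per embryo, shrunken at low counts, and a mean normalized count per gene, a signal pooled over embryos. Columns of the authors' own comparisons hold fold changes, standard errors, test scores and p-values, and were not used. No other per-sample column was left unused (0). Total counts, and so the depth per embryo, are unknown. The study picked embryos by principal components and morphology.

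Genes with a mean of at least 10 in both tables were joined by gene ID. One model with 4 group means was fitted with limma 3.58.1 (R 4.3.3, empirical Bayes with trend), with contrasts for the difference and the mean of the effects. Single effects were fitted in each table alone. Genes with an adjusted p (Benjamini-Hochberg over all tested genes) under 0.05 were called. The values turned out to be on a log2 scale, so no pseudocount was added. The code was checked on simulated data. Named genes were the 12 largest called differences each way, up to 12 a direction with opposite effects that both passed, up to 3 called members a direction of each list (or the member with the largest difference), and Asx, caly, Sce, Psc, Su(z)2, Drl-2, the 8 HOX genes, w, y, msl-2 and Sxl. Other genes, such as remaining called list members and neighbours, were added after their values were seen. The members, lists and tests were chosen with earlier results of these data known. Alternatives were other filters, normalizations, pseudocounts, variance models, covariates, a replicate block and leaving out embryos.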

Additional observations from a re-analysis of the deposited data

Results flagged for a closer look

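The 25 genes with opposite effects were picked because both effects and their difference passed limma's test. At 22 of them the groups overlapped in neither table, which that choice favours, and the share over all genes was not counted. The difference (Asx0 effect minus SceI48A effect, log2) was 3.56 at Prx6c, 3.09 at Prx6b, 1.09 at Cyp4ad1, 1.05 at CG43742, 1.04 at Muc18B, 1.01 at yellow-h, 0.96 at tobi and 0.96 at Idgf5. It was 0.71 at haf, 0.67 at Adgf-A, 0.67 at CG34221, 0.53 at CG17292 and 0.46 at side-VIII. On the lower side it was -2.68 at w, -2.48 at CG17633, -2.45 at Pepck1, -0.91 at ds, -0.81 at coro, -0.76 at Spn55B, -0.71 at MRP, -0.55 at CG10077 and -0.43 at CG30265.

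Among 109 named genes, single embryos stood far from the rest of their group in 32 of 327 gene and group pairs examined (9.79%). The pairs cover Asx0, SceI48A and the wild type for SceI48A. The 3 wild-type embryos for Asx0 were not examined in this way. The nominal rate is about 1 in 20, but it assumes independent pairs, and many genes were named for their results. An excess over chance was therefore not tested. Wild-type embryo 1 for SceI48A accounted for 11 of the 32 pairs. It was high for Prx6c (12.24, others 10.98 to 11.13), PPO2 (12.73), Muc18B (7.12) and GstE4 (7.05). It was low for Cyp6a13 (6.98), Asx (10.43), osa (11.94) and the HOX genes Ubx (10.66, others 10.99 to 11.01), Abd-B (10.31), Scr (9.88) and abd-A (11.58). In the same wild type, embryo 2 was high for Psc (10.23) and embryo 3 high for b (7.25) and low for msl-2 (8.76).

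Among SceI48A embryos, embryo 1 was low for Idgf5 (8.03, others 8.87 to 8.93) and CG17111 (8.13) and high for CG43799 (8.20). Embryo 2 was high for CG5493 (7.95) and Su(z)2 (11.68), and embryo 4 for CG18853 (4.73) and coro (12.17). Among Asx0 embryos, embryo 4 was low for Cyp4ad1 (8.81), Dfd (7.64) and Ppn (14.78, others 15.35 to 15.50) and high for Cht10 (9.94), Abd-B (10.28) and Tk (5.10). Asx0 embryo 1 was low for p24-2 (6.58, others 9.71 to 10.98) and msl-2 (8.31) and high for Sxl (11.999) and Obp18a (6.51), and embryo 3 was low for Cyp4p2 (6.78).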

How the results depend on the processing

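With the replicate number as a block, 84 genes had a higher and 66 a lower Asx0 effect (142 of these 150 among the 414), and 433 and 600 had a higher and a lower mean effect. Deviations of same-numbered embryos were little correlated (from -0.0876 to 0.157 in the Asx0 table and from -0.131 to 0.107 in the SceI48A table). Whether same-numbered embryos shared a collection or library batch was not tested. Leaving out each embryo in turn gave 161 to 232 higher and 118 to 201 lower genes, and 673 to 923 higher and 769 to 1017 lower mean effects. The counts stayed within 1.5 times under the other filters, normalizations, pseudocounts, variance models and covariates. Scaling both tables to the same residual SD gave 256 higher and 245 lower, and equal medians 201 and 201. Leaving out SceI48A embryo 1 and wild-type embryo 1 of that table gave 230 and 207 (323 shared with the 414). Of the 89 called genes among the 109 named by the rule, 60 kept their call without any single embryo and 47 under all settings. None of the 89 changed sign. Of the genes not called, p24-2 (-0.47 to 0.94), Dfd (-0.0077 to 0.47), msl-2 (-0.02 to 0.47) and Ubx (-0.12 to 0.06) changed sign over the embryos left out, and lab (-0.0009) without both embryos 1. Psc had an adjusted p of 0.0515 with both tables scaled to the same SD, and Drl-2 one of 0.0318 without both embryos 1. The causes were not tested. Each effect rests on 3 to 5 embryos a group, and no count interval can be given without the depth.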

Other observations

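Among genes outside the lists, chosen after their values were seen, several of known function differed. The glutamine synthetase Gs1 had effects of 0.03 and -0.70 (difference 0.72, limma adjusted p = 0.0001651) and the ornithine aminotransferase Oat 0.01 and -0.69 (difference 0.69, adjusted p = 0.01433). The citrate transporter Indy had -0.10 and -0.66 (difference 0.56, adjusted p = 0.002641). Zw, the glucose-6-phosphate dehydrogenase that supplies NADPH, had 0.40 and -0.17 (difference 0.57, adjusted p = 0.01308), and Acat2, an acetyl-CoA acetyltransferase, 0.73 and -0.11 (difference 0.84, adjusted p = 0.003015). These 5 calls were kept without any single embryo. LKRSDH, which starts lysine breakdown, had a difference of -0.95, and that call was lost without any of 7 embryos (adjusted p up to 0.108).

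The myosin ck had effects of -0.56 and 0.11 (difference -0.67, adjusted p = 0.009247), kept without any single embryo. The kinase fj had a difference of -0.36 (adjusted p = 0.01686), lost without wild-type embryo 3 for Asx0 (adjusted p = 0.051). The cadherin ft, the partner of ds, had -0.43, lost without any of 7 embryos (adjusted p up to 0.0756). The cell death gene hid had -0.63 (adjusted p = 0.02004), lost without wild-type embryo 3 for Asx0 (adjusted p = 0.0528). grim had -0.42 and skl -0.36, lost without any of 6 and 13 embryos (adjusted p up to 0.0746 and 0.114), and rpr had 0.16 and was not called (adjusted p = 0.6696).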
